A study of Mus musculus with 21 samples.

Results

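Hox cluster genes were taken as every row of the deposited expression tables whose symbol is Hox, a cluster letter from a to d and a paralog number. This gave 39 genes, of which 38 had a row in the table of sorted cells (27968 genes) and 39 in the table of cocultured cells (22899 rows). They comprised 11 HoxA genes (chromosome 6), 10 HoxB genes (chromosome 11), 9 HoxC genes (chromosome 15) and 9 HoxD genes (chromosome 2). Hoxc11 was measured in the coculture table and was not analysed here in sorted cells. The rule itself uses no measured value.

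The study differentiated mouse embryonic stem cells towards blood in a 3D self-assembling peptide gel and then reseeded the colonies on OP9 stromal cells or on 0.1% gelatin. RNA-seq was done on 21 libraries in 7 groups of 3. The OP9 and gelatin cultures were collected as total cells on day 5 (3D+OP9 and 3D+0.1%gel). Sorted groups were undifferentiated stem cells gated on SSEA-1 (mESC), day 5 LSK cells of the OP9 coculture with and without surface CD201 (D5-LSKCD201+ and D5-LSKCD201-), and LSKCD201+ cells of E12.5 fetal liver (FL-LSKCD201+) and of bone marrow from mice 6 to 8 weeks old (BM-LSKCD201+). LSK stands for lineage-negative, Sca-1-positive and c-kit-positive, and CD201 is the endothelial protein C receptor encoded by Procr. The labels give 129/ola as the strain of the stem cells and of everything grown from them, while the study's methods name stem cells of both 129/ola and C57BL/6 origin. Both tissue groups came from C57BL/6 mice. As labelled, strain and source cannot be told apart in any comparison of cultured with tissue cells. OP9 cells, a mouse bone marrow stromal line treated with mitomycin C before use, may be among the total cells of 3D+OP9. The study calls the 3 libraries of each sorted group biological replicates, and the labels do not say whether the libraries of any group came from separate cultures or animals, so that p-values describe the spread between these libraries.

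Hox proteins are homeodomain transcription factors encoded in 4 chromosomal clusters. Within a cluster the genes lie in the order of their paralog number, and in the embryo they are switched on in that order in time and along the body axis, so that low paralogs mark anterior and early domains and high paralogs posterior and late ones. Their proteins bind DNA together with TALE homeodomain partners of the PBX and MEIS families. In blood, middle and posterior HoxA genes, Hoxa9 above all, are known for their high expression in stem and progenitor cells, and Hoxb4 for expanding such cells when supplied from outside.

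The labels were set against markers. Pou5f1, which marks pluripotent cells, was at 424 to 429 FPKM in mESC, at 155 to 258 in D5-LSKCD201- and at no more than 2.67 in the other sorted groups. Procr was at 57.9 to 61.9 FPKM in D5-LSKCD201+ against 3.02 to 3.82 in D5-LSKCD201-. The pan-leukocyte gene Ptprc (CD45) was at 0.305 to 0.602 in D5-LSKCD201+ against 38.4 to 71.6 in the tissue groups, and the endothelial genes Cdh5 (67.6 to 73.6) and Pecam1 (251 to 269) were highest in D5-LSKCD201+. The 5 red cell genes read summed to 17538 to 35680 FPKM in FL-LSKCD201+ and 4 hepatoblast genes to 338 to 513. Replicate 2 of D5-LSKCD201-, replicate 1 of FL-LSKCD201+, replicate 1 of BM-LSKCD201+ and replicate 3 of 3D+OP9 stood apart from the other pair of their group, by a mean absolute log2 difference of 0.238 to 0.333 against 0.0880 to 0.114 within the pair. In bulk samples fewer cells of a type and less RNA per cell cannot be told apart.

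The tissue cells used mainly HoxA, and the CD201+ cells made in culture mainly HoxB. FPKM is per length and per library, so that levels of different genes can be summed. Over the 38 sorted-cell members the sum was 10.3 ± 0.619 FPKM in mESC (SD, n = 3), 14.2 ± 0.917 in D5-LSKCD201-, 38.4 ± 1.76 in D5-LSKCD201+, 170 ± 22.9 in FL-LSKCD201+ and 227 ± 6.75 in BM-LSKCD201+. The libraries of the 5 groups did not overlap in this sum. HoxA genes made up 93.1% ± 0.426 of it in bone marrow and 91.5% ± 1.01 in fetal liver, but 28.9% ± 1.22 in D5-LSKCD201+, 42.5% ± 1.76 in D5-LSKCD201- and 59.9% ± 3.83 in mESC. HoxB genes made up 67.4% ± 1.06 in D5-LSKCD201+, 45.2% in D5-LSKCD201-, 26.6% in mESC, 8.39% in fetal liver and 6.79% in bone marrow.

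**Figure D1:**
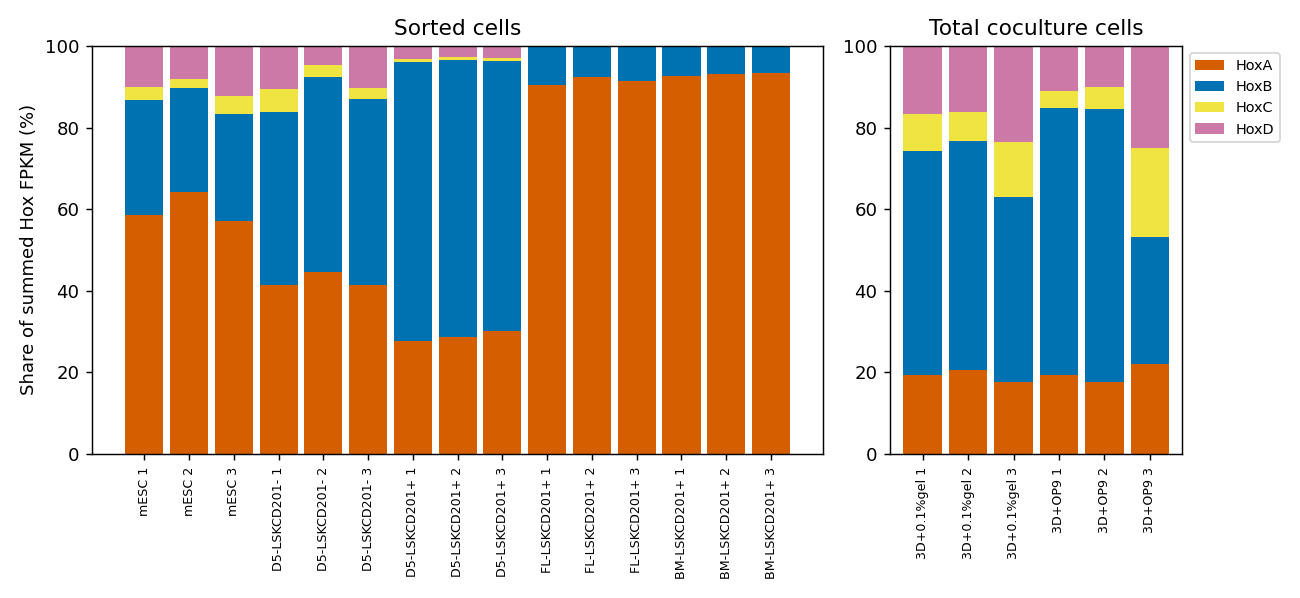
Each bar is 1 library and shows the share (%) of the summed Hox FPKM that falls to HoxA, HoxB, HoxC and HoxD, with sorted cells on the left and total coculture cells on the right. HoxA takes 90.4% to 93.5% of the sum in the 6 tissue libraries and HoxB 66.2% to 68.3% in the 3 D5-LSKCD201+ libraries. In the coculture, replicate 3 of 3D+OP9 has a HoxB share of 31.2% where replicates 1 and 2 have 65.2% and 66.9%.

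Of the HoxA genes, 4 neighbours or near neighbours carried nearly all of the tissue signal. Hoxa5, Hoxa7, Hoxa9 and Hoxa10 together came to 204 ± 6.74 FPKM in bone marrow, 146 ± 20.9 in fetal liver and 4.09 ± 0.482 in D5-LSKCD201+ (SD, n = 3). That was 89.8% and 86.2% of all Hox FPKM in the tissue groups, and 10.6% in D5-LSKCD201+.

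Hoxa9 (chr6:52223100-52231089, minus strand, GRCm38), the HoxA gene best known from blood stem cells and leukemia, was the highest Hox gene in both tissues. Its 3 bone marrow libraries read 101, 112 and 108 FPKM and its fetal liver libraries 60.2, 80.4 and 78.9. It was at 1.2, 1.14 and 1.40 FPKM in D5-LSKCD201+, at 0.677, 0.911 and 0.535 in D5-LSKCD201-, and at 0.314, 0.722 and 0.182 in mESC. Every tissue library thus stood far above every cultured one, and bone marrow stood above fetal liver without overlap.

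Hoxa10, its neighbour in the cluster, was likewise higher in bone marrow than in fetal liver, and higher in both than in the cultured groups. It was at 50.8, 50.5 and 49.7 FPKM in bone marrow and at 21.3, 26.6 and 28.3 in fetal liver. D5-LSKCD201+ (1.51, 1.12 and 1.07), D5-LSKCD201- (1.41, 0.923 and 1.23) and mESC (1.26, 1.72 and 1.76) overlapped.

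Hoxa7, which lies on the other side of Hoxa9, was at 35.4, 36.6 and 33.0 FPKM in bone marrow and at 22.3, 26.1 and 26.4 in fetal liver. It was at 0.539, 0.250 and 0.276 in D5-LSKCD201+, at 0.506, 0.867 and 0.526 in D5-LSKCD201- and at 1.40, 1.54 and 0.883 in mESC. Among cultured cells the stem cells were therefore the highest.

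Hoxa5 turned the tissue order around. Fetal liver had 18.4, 25.3 and 24.6 FPKM, all above the 11, 12.5 and 12.4 of bone marrow. D5-LSKCD201+ had 1.36, 1.16 and 1.24, above the 0.620, 0.691 and 0.913 of D5-LSKCD201- and the 0.891, 0.446 and 0.493 of mESC.

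The remaining anterior and middle HoxA genes were lower. Hoxa2 was at 1.93, 3.13 and 2.23 FPKM in fetal liver and 2.78, 2.47 and 1.97 in bone marrow, against 0.860 to 1.52 in D5-LSKCD201+, 1.2 to 1.34 in D5-LSKCD201- and 0.144 to 0.309 in mESC. Hoxa3 was at 2.13, 3.76 and 3.54 in fetal liver and 3.41, 3.55 and 2.51 in bone marrow, and its 9 cultured libraries lay between 0.205 and 0.605. The tissue groups overlapped in both genes. Hoxa4 was at 2.25, 2.14 and 1.49 in fetal liver, above the 0.875, 1.01 and 0.901 of bone marrow, and at no more than 0.117 in cultured cells. Hoxa6 was at 0.971, 1.32 and 1.46 in fetal liver and 1.35, 0.599 and 0.600 in bone marrow, was listed at 0 in every mESC and D5-LSKCD201+ library, and reached 0.0501 in 1 of the 3 D5-LSKCD201- libraries. Hoxa2 to Hoxa7 carry the same locus entry in the deposited table, where overlapping gene models are merged, so that reads of one may be counted for another.

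Hoxa13, at the posterior end of the cluster and known from limb, gut and urogenital development, was a D5-LSKCD201+ gene. Its 3 libraries there read 3.86, 4.0 and 4.81 FPKM. D5-LSKCD201- had 0.185, 0.234 and 0.188, mESC and fetal liver had at most 0.0268, and bone marrow was listed at 0 in all 3. No library of another group came near the D5-LSKCD201+ values. Hoxa11, the gene between Hoxa10 and Hoxa13, did not share this level, with 0.501, 0.142 and 0.261 FPKM in D5-LSKCD201+ and 0 in every tissue library. The noncoding transcripts at this end did appear in the same cells. Hoxa11os was at 1.24, 1.06 and 1.04 in D5-LSKCD201+ and Hottip, transcribed just beyond Hoxa13, at 0.137, 0.179 and 0.285, with Hottip listed at 0 in all 12 libraries of the other groups. Whether the counting used strand is not given in the sources used here, so that Hoxa11 and Hoxa11os reads may be mixed.

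**Figure D2:**
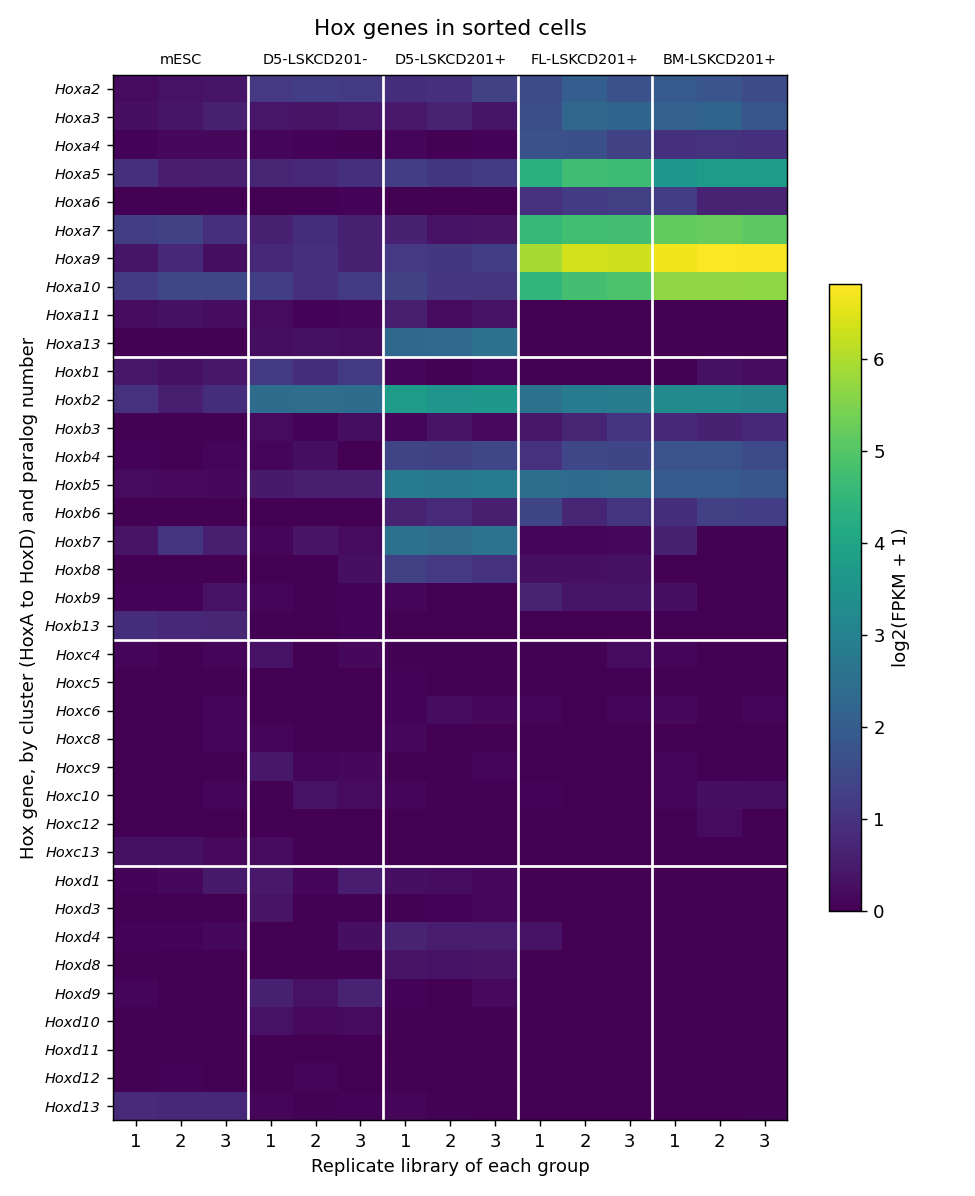
The heatmap shows log2(FPKM + 1) of Hox genes (rows, by cluster and paralog number) in the 15 sorted-cell libraries (columns, replicates 1 to 3 of each group). Hoxa5, Hoxa7, Hoxa9 and Hoxa10 are bright in the 6 tissue libraries, Hoxa13, Hoxb7 and Hoxb8 stand out in D5-LSKCD201+, and no HoxC or HoxD gene exceeds 0.750 FPKM in any library.

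Among the HoxB genes Hoxb2, an anterior gene of the hindbrain, had the highest mean in every sorted group, though in mESC it overlapped Hoxb7 and Hoxb13. It was at 12.3, 10.7 and 11.3 FPKM in D5-LSKCD201+, at 8.54, 8.43 and 7.61 in bone marrow, at 4.85, 6.02 and 6.46 in fetal liver, at 4.27, 4.43 and 4.29 in D5-LSKCD201-, and at 0.971, 0.498 and 0.867 in mESC. The 5 groups did not overlap and stood in that order. The locus entries of Hoxb2 and of Hoxb3 are each shared with 3 other genes, so that reads of one gene may be counted for another.

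Hoxb5 was also highest in D5-LSKCD201+, with 6.10, 5.75 and 6.05 FPKM, followed by fetal liver (4.48, 4.22 and 4.39) and bone marrow (2.88, 2.80 and 2.53). It was at 0.417, 0.489 and 0.493 in D5-LSKCD201- and 0.0974 to 0.142 in mESC. These groups did not overlap either. Hoxb5 and Hoxb6 share a locus entry.

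Hoxb4, the member known for expanding blood stem cells in culture, was at 1.61, 1.54 and 1.72 FPKM in D5-LSKCD201+, 0.978, 1.71 and 1.66 in fetal liver and 2.36, 2.34 and 1.91 in bone marrow. D5-LSKCD201- had 0.0735, 0.188 and 0 and mESC 0.0339 to 0.0699. D5-LSKCD201+ and fetal liver overlapped, and both stood clear of D5-LSKCD201- and mESC.

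Hoxb7 and Hoxb8 were largely a D5-LSKCD201+ signal. Hoxb7 was at 4.87, 4.41 and 5.01 FPKM there, against 0.0574, 0.291 and 0.144 in D5-LSKCD201-, 0.281, 1.04 and 0.493 in mESC, 0.0719, 0.0602 and 0.106 in fetal liver, and 0.556, 0 and 0 in bone marrow. Hoxb8, which blocks myeloid maturation when forced into progenitors, was at 1.43, 1.17 and 1.0 in D5-LSKCD201+, at 0.204 to 0.239 in fetal liver, and at 0.207 or less in the other 9 libraries. The D5-LSKCD201+ libraries stood above all others in both genes.

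Hoxb6, at 0.600, 0.758 and 0.493 FPKM in D5-LSKCD201+, was higher in fetal liver (1.69, 0.636 and 1.08) and bone marrow (0.850, 1.45 and 1.39), with the first of these overlapping D5-LSKCD201+, and was listed at 0 in all mESC and D5-LSKCD201- libraries. Hoxb3 was at 0.362, 0.637 and 1.06 in fetal liver, 0.712, 0.555 and 0.715 in bone marrow and at most 0.273 elsewhere. Hoxb1, the most anterior HoxB gene and an early retinoic acid target, was the one HoxB gene highest in D5-LSKCD201-, with 1.25, 0.854 and 1.21 FPKM against 0.0570, 0.0344 and 0.0627 in D5-LSKCD201+. It was at 0.229 to 0.349 in mESC, at 0.244 or less in bone marrow and listed at 0 in fetal liver. Hoxb9 reached 0.607 in fetal liver and Hoxb13 0.840 in mESC, and neither had a sorted group mean of 1 FPKM.

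**Figure D3:**
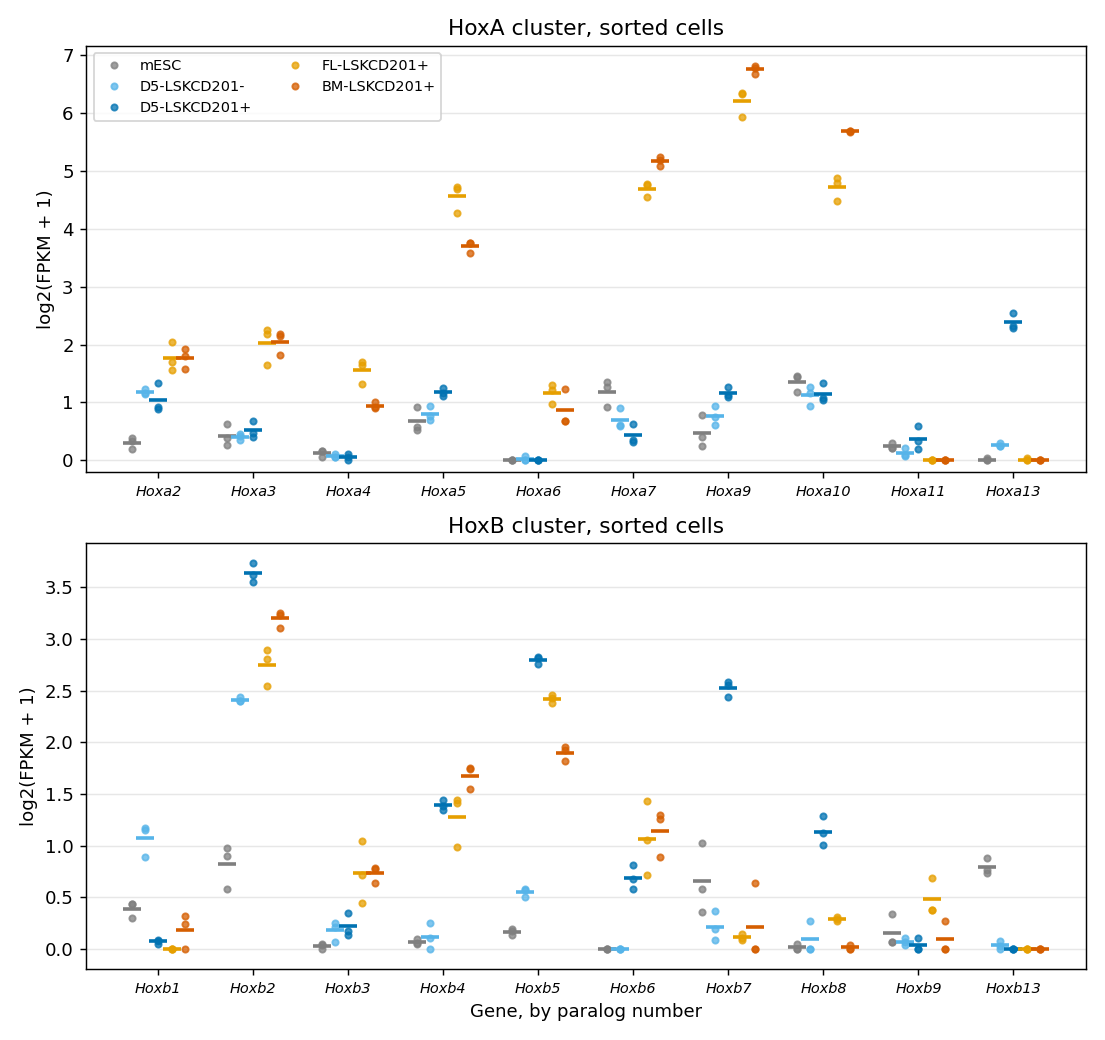
Points are single libraries and dashes group means of log2(FPKM + 1) for HoxA genes (top) and HoxB genes (bottom) in paralog order, for the 5 sorted groups. In HoxA the fetal liver and bone marrow points are high at Hoxa5, Hoxa7, Hoxa9 and Hoxa10 and D5-LSKCD201+ is high at Hoxa13, and in HoxB the D5-LSKCD201+ points lead at Hoxb2, Hoxb5, Hoxb7 and Hoxb8.

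HoxC and HoxD were near 0 in sorted cells. The highest HoxC value in any sorted library was 0.363 FPKM (Hoxc9 in D5-LSKCD201-) and the highest HoxD value 0.750 (Hoxd13 in mESC). Of the 9 HoxD genes, 8 were listed at 0 in all 3 fetal liver libraries and 7 in all 3 bone marrow libraries, and in D5-LSKCD201+ none was. Within HoxD, Hoxd4 (0.447 to 0.591) and Hoxd8 (0.262 to 0.292) were highest in D5-LSKCD201+, Hoxd9 (0.260 to 0.571) in D5-LSKCD201-, and Hoxd13 (0.686 to 0.750) in mESC. Hoxd1 was at 0.0744 to 0.462 in D5-LSKCD201- and 0.0378 to 0.417 in mESC, which overlapped, and Hoxc6 and Hoxc10 were at no more than 0.268 in any sorted library.

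The sequences just before the start of 4 genes are shown because Hoxa9 and Hoxa10 are among the genes lower, and Hoxa13 and Hoxb8 among those higher, in D5-LSKCD201+ than in bone marrow, and no GENCODE exon overlaps the window. Each is 250 bases before the RefSeq start, 5′ to 3′ on the strand of the gene, build GRCm38.p6, as RefSeq gives it. Capitals mark TTTATG, a core motif bound by CDX factors, searched on both strands, so that a match on the other strand reads CATAAA. The window of Hoxa9 (chr6:52227371-52227620, minus strand) lies within the GENCODE Hoxa9 gene, upstream of its shorter transcript, and those of Hoxa10 (chr6:52240855-52241104, minus strand), Hoxa13 (chr6:52260881-52261130, minus strand) and Hoxb8 (chr11:96281655-96281904, plus strand) directly precede the GENCODE gene.
Hoxa9: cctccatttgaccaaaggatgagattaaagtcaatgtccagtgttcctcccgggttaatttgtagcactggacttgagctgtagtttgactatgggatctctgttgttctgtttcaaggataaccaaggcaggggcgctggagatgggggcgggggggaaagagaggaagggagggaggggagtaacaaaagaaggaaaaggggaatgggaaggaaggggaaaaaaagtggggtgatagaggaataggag
Hoxa10: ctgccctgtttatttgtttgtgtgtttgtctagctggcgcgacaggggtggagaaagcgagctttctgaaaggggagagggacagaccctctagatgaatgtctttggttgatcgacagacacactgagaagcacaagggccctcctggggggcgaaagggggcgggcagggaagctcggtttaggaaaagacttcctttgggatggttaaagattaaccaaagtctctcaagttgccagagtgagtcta
Hoxa13: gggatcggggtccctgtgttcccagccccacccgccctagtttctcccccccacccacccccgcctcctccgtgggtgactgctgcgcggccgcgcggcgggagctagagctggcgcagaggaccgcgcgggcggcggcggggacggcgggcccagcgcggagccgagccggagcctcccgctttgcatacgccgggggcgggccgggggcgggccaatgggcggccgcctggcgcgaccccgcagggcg
Hoxb8: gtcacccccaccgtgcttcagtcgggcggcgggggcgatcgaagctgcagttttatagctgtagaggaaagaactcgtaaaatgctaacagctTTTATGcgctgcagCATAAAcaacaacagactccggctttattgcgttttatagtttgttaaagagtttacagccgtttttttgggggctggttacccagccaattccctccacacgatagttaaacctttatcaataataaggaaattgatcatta
Hoxb8 held 2 matches and Hoxa9, Hoxa10 and Hoxa13 none. Of 22 members with a promoter entry, 5 held the motif (Hoxa7, Hoxb8, Hoxd3, Hoxd4 and Hoxd11), and so did 10.8% of all 32851 promoters of this length. The window of Hoxa13 held 35 CpG dinucleotides, that of Hoxb8 12, those of the 2 Hoxa10 entries 7 and 20 and that of Hoxa9 3, where the median was 12.5 over the 24 member promoters and 6 over all promoters. TGATTNAT, a motif of paired PBX and HOX proteins, was in Hoxa2 and Hoxd11 and in 2.82% of all promoters.

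Comparisons between groups were tested with limma on log2(FPKM + 1), over every gene that averaged 0.5 FPKM or more across the 6 libraries compared, with Benjamini-Hochberg adjustment. A gene was called at an adjusted p under 0.05 and a log2 fold change of at least 1 in size. On this scale changes of genes near or under 1 FPKM are understated. A member that passed the filter through the group where it was high could hardly fail to differ, so that the counts of called members are descriptions. D5-LSKCD201+ enters 4 of the comparisons, which therefore share its libraries.

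The comparison of D5-LSKCD201+ with D5-LSKCD201- asks what separates the cells that carry CD201 from those that do not in the same culture. Of 12 members tested, 6 were called higher in D5-LSKCD201+ and 0 lower, where 10.8% of all 13691 genes tested were called higher, 13.9% lower and 24.7% in either direction. An adjusted p under 0.05 alone was reached by 9 of the 12, against 68.3% of all genes, and the libraries did not overlap in 9, against 73.6%. The median log2 fold change was 0.72 over the members and -0.12 over all genes. Hoxb7 differed by 2.31 (SE 0.11, adjusted p = 2.04e-06), Hoxb5 by 2.25 (SE 0.09, adjusted p = 8.16e-07) and Hoxa13 by 2.12 (SE 0.10, adjusted p = 2.25e-06). On the FPKM scale their means stood in ratios of 29.0, 12.8 and 20.9. Hoxb4 (1.28, adjusted p = 1.82e-05), Hoxb2 (1.22, adjusted p = 1.55e-05) and Hoxb8 (1.04, adjusted p = 1.62e-04) completed the 6, and 5 of them are HoxB genes. Hoxb1 was at -1.0 (SE 0.10, adjusted p = 8.18e-05), with a ratio of means of 21.5 in favour of D5-LSKCD201-, and at -0.997 to more decimals missed the fold threshold. Hoxb8 came to 0.999 and lost its call without replicate 1 or without replicate 2 of D5-LSKCD201-, and fell under the filter without replicate 1 of D5-LSKCD201+. Hoxb1 was called lower (-1.09) without replicate 2 of D5-LSKCD201-, and at -1.0 without replicate 1 or 3 of D5-LSKCD201+. Hoxa5 (0.37, adjusted p = 0.0110) and Hoxa9 (0.40, adjusted p = 0.0141) passed the p threshold alone. For Hoxa2 and Hoxa10 the intervals of the difference included 0, that of Hoxa10 running from -0.26 to 0.33. Endothelial markers moved with these genes, 4 of them summing to 539 to 563 FPKM in D5-LSKCD201+ and 35.7 to 37.1 in D5-LSKCD201-, and so did pluripotent markers in the other direction, 4 of them summing to 2.32 to 3.42 and 244 to 356. Stromal markers were also higher in D5-LSKCD201+, summing to 95.1 to 98.5 FPKM against 38.1 to 72.6. Preadipocyte and pan-leukocyte sums were higher there too, without overlap. Hepatoblast markers (0.668 to 0.918 against 4.74 to 7.41) and red cell markers were lower in D5-LSKCD201+, without overlap. The part of all these markers in the Hox differences was not tested. Whether OP9 cells were among the sorted cells was not tested either.

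Against mESC, D5-LSKCD201+ shows what changed from the starting cells. Again 12 members were tested, with 6 called higher and 0 lower, where 19.5% of all 13441 genes were called higher, 18.1% lower and 37.6% in either direction. By p alone 11 passed, as did 85.5% of all genes, and in 11 the libraries did not overlap, as in 86.1%. The members were Hoxb2 (2.82, SE 0.11, adjusted p = 2.14e-08), Hoxb5 (2.63, SE 0.07, adjusted p = 2.06e-09), Hoxa13 (2.37, SE 0.09, adjusted p = 1.48e-08), Hoxb7 (1.87, SE 0.16, adjusted p = 3.29e-06), Hoxb4 (1.33, adjusted p = 1.87e-07) and Hoxb8 (1.12, adjusted p = 2.58e-06). The libraries of these 6 did not overlap those of mESC. By p alone, Hoxa2 (0.74, adjusted p = 4.58e-04), Hoxa9 (0.69, adjusted p = 0.00117) and Hoxa5 (0.50, adjusted p = 0.00277) were higher in D5-LSKCD201+. Hoxa7 was lower in D5-LSKCD201+, by p alone, at -0.74 (adjusted p = 6.29e-04). The median was 0.93 over the members tested and -0.07 over all genes. Hoxb8 fell under the filter without replicate 1 or without replicate 2 of D5-LSKCD201+. Endothelial markers (539 to 563 against 15.5 to 15.7 FPKM), stromal markers (95.1 to 98.5 against 8.29 to 9.51) and pluripotent markers (2.32 to 3.42 against 563 to 589) moved with this comparison, and their part was not tested.

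Hoxb2 was also higher in D5-LSKCD201- than in mESC. Of 8 members tested 1, Hoxb2, was called (1.59, SE 0.13, adjusted p = 4.53e-05), where 10.9% of all 13596 genes were called higher, 3.48% lower and 14.3% in either direction. By p alone 5 passed, as did 54.6% of all genes, and 5 did not overlap, as did 64.4%. Hoxa2 (0.87, adjusted p = 1.89e-04) and Hoxb1 (0.68, adjusted p = 0.00141) were higher by p alone, and Hoxa7 (-0.47, adjusted p = 0.0295) lower by p alone. The 3 genes that were higher are anterior paralogs. Endothelial markers (35.7 to 37.1 FPKM against 15.5 to 15.7), stromal markers (38.1 to 72.6 against 8.29 to 9.51), hepatoblast markers (4.74 to 7.41 against 0.0785 to 0.567) and pluripotent markers (244 to 356 against 563 to 589) moved with this comparison, and their part was not tested.

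The comparison of D5-LSKCD201+ with fetal liver LSKCD201+ sets the cultured cells beside cells of the same gate from the embryo. Of 16 members tested, 2 were called higher in D5-LSKCD201+ and 7 lower, where 34.7% of all 13627 genes were called, 15.1% higher and 19.6% lower. By p alone 14 passed, as did 72.1% of all genes, and 14 did not overlap, as did 76.6%. All 7 lower members are HoxA genes. Hoxa9 differed by -5.04 (SE 0.13, adjusted p = 1.60e-07), Hoxa7 by -4.26 (SE 0.12, adjusted p = 2.32e-07), Hoxa10 by -3.56 (SE 0.14, adjusted p = 9.13e-07) and Hoxa5 by -3.39 (SE 0.13, adjusted p = 1.08e-06). On the FPKM scale the fetal liver means were 58.9, 70.2, 20.6 and 18.2 times those of D5-LSKCD201+. Hoxa3 (-1.51, adjusted p = 2.41e-04), Hoxa4 (-1.5, adjusted p = 3.49e-05) and Hoxa6 (-1.16, adjusted p = 5.50e-05) were also lower, Hoxa6 being listed at 0 in D5-LSKCD201+. It fell under the filter without replicate 2 or without replicate 3 of fetal liver. Hoxb7 (2.42, SE 0.08, adjusted p = 5.80e-07) and Hoxa13 (2.37, SE 0.10, adjusted p = 1.28e-06) were higher. For Hoxb4 the difference was 0.11 with an interval from -0.22 to 0.44 (adjusted p = 0.489), for Hoxb5 it was 0.38 (adjusted p = 0.00344), and for Hoxb2 0.88 (adjusted p = 3.79e-04). Hoxb8 (0.85) was higher, and Hoxa2 (-0.71) lower, by p alone. The median was -0.54 over the members tested and -0.16 over all genes. Other markers moved with this comparison. The 3 pan-leukocyte genes summed to 12.8 to 14.9 FPKM in D5-LSKCD201+ and 808 to 965 in fetal liver, the 4 endothelial genes to 539 to 563 and 26.1 to 31.3, and the 10 stromal genes to 95.1 to 98.5 and 12.1 to 15. Red cell genes summed to 22.6 to 30.0 FPKM in D5-LSKCD201+ where fetal liver had at least 17538. The 4 hepatoblast genes summed to 0.668 to 0.918 in D5-LSKCD201+ and 338 to 513 in fetal liver. The part of these markers was not tested. The 7 lower calls stood without replicate 1 of fetal liver, the library that stood apart.

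Against adult bone marrow, Hoxa3, Hoxa5, Hoxa7, Hoxa9 and Hoxa10 were lower and Hoxa13, Hoxb7 and Hoxb8 higher in D5-LSKCD201+. Of 14 members tested, 3 were called higher in D5-LSKCD201+ and 5 lower, where 44.7% of all 13775 genes were called, 17.5% higher and 27.2% lower. All 14 passed by p alone, as did 83.4% of all genes, and all 14 did not overlap, as did 85.3%. Hoxa9 differed by -5.59 (SE 0.07, adjusted p = 2.04e-09), Hoxa7 by -4.74 (SE 0.10, adjusted p = 1.41e-08), Hoxa10 by -4.53 (SE 0.09, adjusted p = 8.71e-09), Hoxa5 by -2.52 (SE 0.09, adjusted p = 1.30e-07) and Hoxa3 by -1.53 (SE 0.13, adjusted p = 2.12e-05). The bone marrow means were 86.1, 98.4, 40.8, 9.55 and 7.25 times those of D5-LSKCD201+. Hoxa13 (2.38, adjusted p = 3.18e-07, listed at 0 in bone marrow), Hoxb7 (2.31, adjusted p = 1.10e-05) and Hoxb8 (1.12, adjusted p = 2.16e-05) were higher. Hoxb8 fell under the filter without replicate 1 or without replicate 2 of D5-LSKCD201+. By p alone, Hoxb5 (0.90) and Hoxb2 (0.44) were higher, and Hoxa2 (-0.71), Hoxb6 (-0.46) and Hoxb4 (-0.28) lower. Quantile normalization moved Hoxb4 to 0.07, so that its direction depends on the scaling. Pan-leukocyte genes, at 12.8 to 14.9 FPKM against 718 to 812 in bone marrow, and endothelial genes, at 539 to 563 against 29.1 to 40.8, moved with this comparison. So did stromal genes, at 95.1 to 98.5 against 6.42 to 6.85, and red cell genes, at 22.6 to 30.0 against 271 to 316. Their part was not tested. The median was -0.37 over the members tested and -0.23 over all genes.

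**Figure D4:**
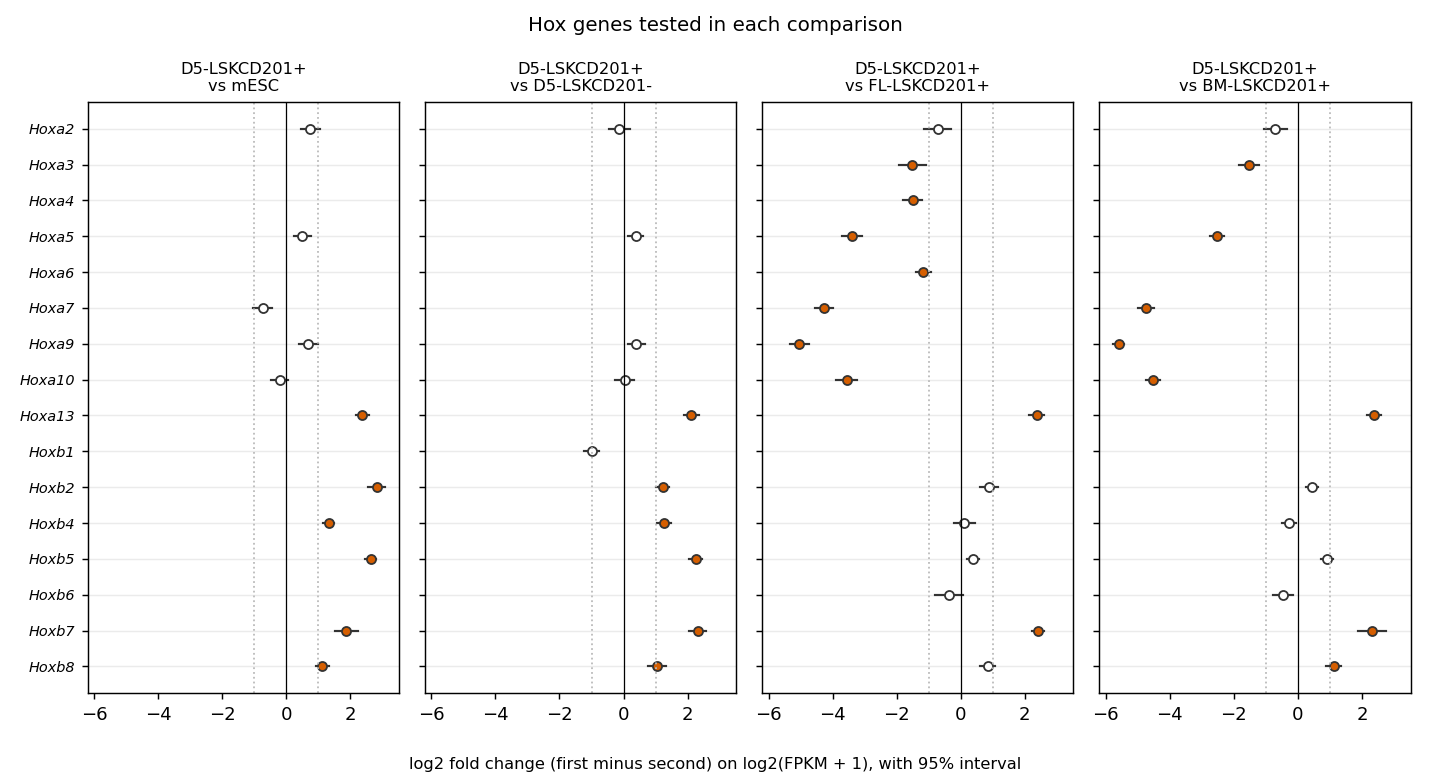
Each panel shows the log2 fold change of D5-LSKCD201+ minus the second group on log2(FPKM + 1), with its 95% interval, for Hox genes tested in that comparison. Filled points were called (adjusted p under 0.05 and a change of at least 1, dotted lines), empty points were not, and genes with no point were under the filter. The tested genes from Hoxa2 to Hoxa10 lie left of 0 against both tissues, whereas Hoxa13, Hoxb7 and Hoxb8 lie right of 0 in all 4 panels.

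Fetal liver and bone marrow differed in degree. Of 13 members tested by limma 0 were called, where 7.78% of all 13503 genes were called higher in fetal liver, 11.3% lower and 19.1% in either direction. An unadjusted p under 0.05 was reached by 8 members, and an adjusted p under 0.05 by 7, as by 55.1% of all genes. In 8 the libraries did not overlap, as in 63.5%. Hoxa10 was at -0.97 (SE 0.12, adjusted p = 4.04e-04), Hoxa9 at -0.55 (adjusted p = 0.00848), Hoxa7 at -0.47 (adjusted p = 0.00546) and Hoxb2 at -0.45 (adjusted p = 0.0204), lower in fetal liver. Hoxa5 (0.86, SE 0.14, adjusted p = 0.00160), Hoxa4 (0.61, adjusted p = 0.00866) and Hoxb5 (0.52, adjusted p = 0.00515) were higher in fetal liver. Hoxb4, the eighth by unadjusted p, was at -0.40 (adjusted p = 0.0704), with libraries that did not overlap. Hoxa5 reached 1.0 and a call without replicate 1 of fetal liver, and Hoxa10 reached -1.01 and -1.05 and a call without replicate 2 or 3. The median was -0.02 over the members and -0.13 over all genes. Red cell genes, at 17538 to 35680 FPKM in fetal liver against 271 to 316 in bone marrow, and hepatoblast genes, at 338 to 513 against 6.07 to 9.78, moved with this comparison, and their part was not tested.

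In the coculture, Hox genes were measured in a mixture of all cells, and the table was normalized apart from that of sorted cells, so that levels are not set across the tables. The 39 members summed to 53.3, 57.4 and 60.6 FPKM in 3D+OP9 and to 55.1, 35.4 and 32.0 in 3D+0.1%gel, which overlapped. HoxB held the largest share, 54.4% ± 20.1 (SD, n = 3) on OP9 and 52.0% ± 5.78 on gelatin, and HoxC and HoxD were measurable in both. HoxC summed to 2.29, 3.08 and 13.2 FPKM on OP9 and to 4.99, 2.57 and 4.36 on gelatin, and HoxD to 5.86, 5.83 and 15.1 on OP9 and 9.21, 5.71 and 7.51 on gelatin. Only replicate 3 of 3D+OP9 stood above the gelatin libraries in either cluster.

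Hoxb1 and Hoxb2 were the highest pair in every coculture library but replicate 3 of 3D+OP9, in which Hoxc10 (4.52 FPKM) and Hoxd9 (4.39) exceeded Hoxb1. Hoxb1 was at 13.3, 12.6 and 2.65 FPKM on OP9 and at 8.40, 6.30 and 4.73 on gelatin, and Hoxb2 at 11.1, 13.3 and 4.62 on OP9 and 11.1, 6.24 and 3.55 on gelatin. Hoxb3 read 5.06, 5.49 and 2.34 against 3.72, 2.77 and 1.85. The groups overlapped in these 3 genes, and replicate 3 of 3D+OP9 was the lowest of the OP9 libraries in each.

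Of 24 members tested between 3D+OP9 and 3D+0.1%gel with limma, 0 were called, where 2.11% of all 12958 genes were called higher on OP9, 0.509% lower and 2.62% in either direction. An adjusted p under 0.05 alone was reached by 0 members, against 6.88% of all genes, an unadjusted p under 0.05 by 2 members, and the fold change was positive in 20 and negative in 4, with a median of 0.21 over the members and 0.01 over all genes. The closest to a call was Hoxb5, at 1.11, 1.13 and 1.59 FPKM on OP9 and 0.740, 0.250 and 0.330 on gelatin, a log2 difference of 0.67 (SE 0.17, adjusted p = 0.0582). Hoxb4 had 1.05, 1.31 and 1.26 against 1.02, 0.50 and 0.430, a difference of 0.43 (adjusted p = 0.162). In these 2 genes and in Hoxd8 the libraries did not overlap, as in 28.7% of all genes tested. The intervals were wide, that of Hoxa9 running from -0.43 to 1.29 and that of Hoxc10 from -0.75 to 1.43. Endothelial markers moved with this comparison, summing to 67 to 81.9 FPKM on OP9 and 8.80 to 18.8 on gelatin. So did red cell markers, at 29.2 to 81.9 against 0.920 to 4.37, and stromal markers, at 78.6 to 103 against 47.8 to 62.3. Preadipocyte markers summed to 4.06 to 6.36 FPKM on OP9 and 1.16 to 2.14 on gelatin. Pan-leukocyte markers went the other way, at 2.03 to 3.84 on OP9 and 4.20 to 4.80 on gelatin. Pluripotent markers summed to 466 to 711 on OP9 and 822 to 905 on gelatin, though Esrrb was higher on OP9. The part of these markers in the Hox values was not tested.

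Replicate 3 of 3D+OP9 had a Hox profile of its own. It exceeded each of the 5 other coculture libraries in 26 of the 39 members. By paralog number this held for 11 of 11 genes with paralogs 5 to 8, for 12 of 16 with paralogs 9 to 13 and for 3 of 12 with paralogs 1 to 4, and in 7 of these 12 it lay below both other OP9 libraries. In 20 of 39 members it was over 2 times both other OP9 libraries. Among the 24 members that passed the filter this held for 12, and among all 12958 genes that passed it for 4.47%. Hoxc10 was at 0.610, 0.720 and 4.52 FPKM on OP9 against 1.26, 0.430 and 1.35 on gelatin, and Hoxa10 at 0.240, 0.360 and 2.76 against 0.840, 0.310 and 0.770. Hoxa9 was at 0.300, 0.650 and 2.74, Hoxd9 at 2.21, 2.26 and 4.39, and Hoxc6 at 0.430, 0.640 and 2.39. In each of these the third value was the highest of the 6 coculture libraries. Without replicate 3, 0 members were called, of 19 tested.

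Other markers of replicate 3 also stood apart. Pluripotent markers summed to 711 FPKM in it, against 478 and 466 in replicates 1 and 2 and 822 to 905 on gelatin. Pou5f1, Sox2 and Esrrb were above the other OP9 libraries in it, and Nanog was below them, at 70.3 against 76.7 and 72.9. Cdx1, a caudal-type regulator of Hox genes, was at 0.270 against 3.22 and 3.51, while its relative Cdx2 was at 11.4 against 10.1 and 8.98. Cyp26a1, which breaks down retinoic acid, was at 18.9 against 44.1 and 45.2. Stromal markers, 10 in all, summed to 78.6 in it, to 90.8 and 103 in replicates 1 and 2 and to 47.8 to 62.3 on gelatin. Col1a1, Col1a2 and Col3a1 were the highest of the OP9 libraries in replicate 3, and Pdgfra, Postn and Twist1 the lowest. Red cell markers summed to 81.9 in it and to 29.2 and 58.3 in replicates 1 and 2. The part of these in the Hox values was not tested.

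The remaining named members mostly overlapped between the cultures. Hoxd13 had 0.390, 0.310 and 1.83 FPKM on OP9 and 1.09, 1.86 and 1.56 on gelatin, the lowest fold change of the 24 at -0.52 (adjusted p = 0.345). Hoxb8 (1.18, 1.69 and 2.12 against 1.46, 0.880 and 1.04), Hoxb6 (0.700, 0.900 and 2.19 against 1.48, 0.510 and 0.910), Hoxb9 (1.21, 1.62 and 1.3 against 1.54, 1.76 and 1.21) and Hoxd1 (0.960, 0.910 and 1.17 against 2.08, 1.08 and 0.810) overlapped. Hoxd8 had 0.770, 0.770 and 2.04 against 0.690, 0.230 and 0.680. Hoxa2 had 2.54, 1.93 and 0.660 against 1.09, 0.900 and 0.530, Hoxa3 1.70, 1.58 and 1.09 against 1.72, 1.11 and 0.430. Hoxa13, prominent in the sorted D5-LSKCD201+ cells, was under the filter here, with 0.200, 0.160 and 0.530 on OP9 and 0.12 to 0.160 on gelatin, and Hoxb7, at 0.0400, 0.200 and 0.720 against 0.410 to 0.460, was under it too.

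**Figure D5:**
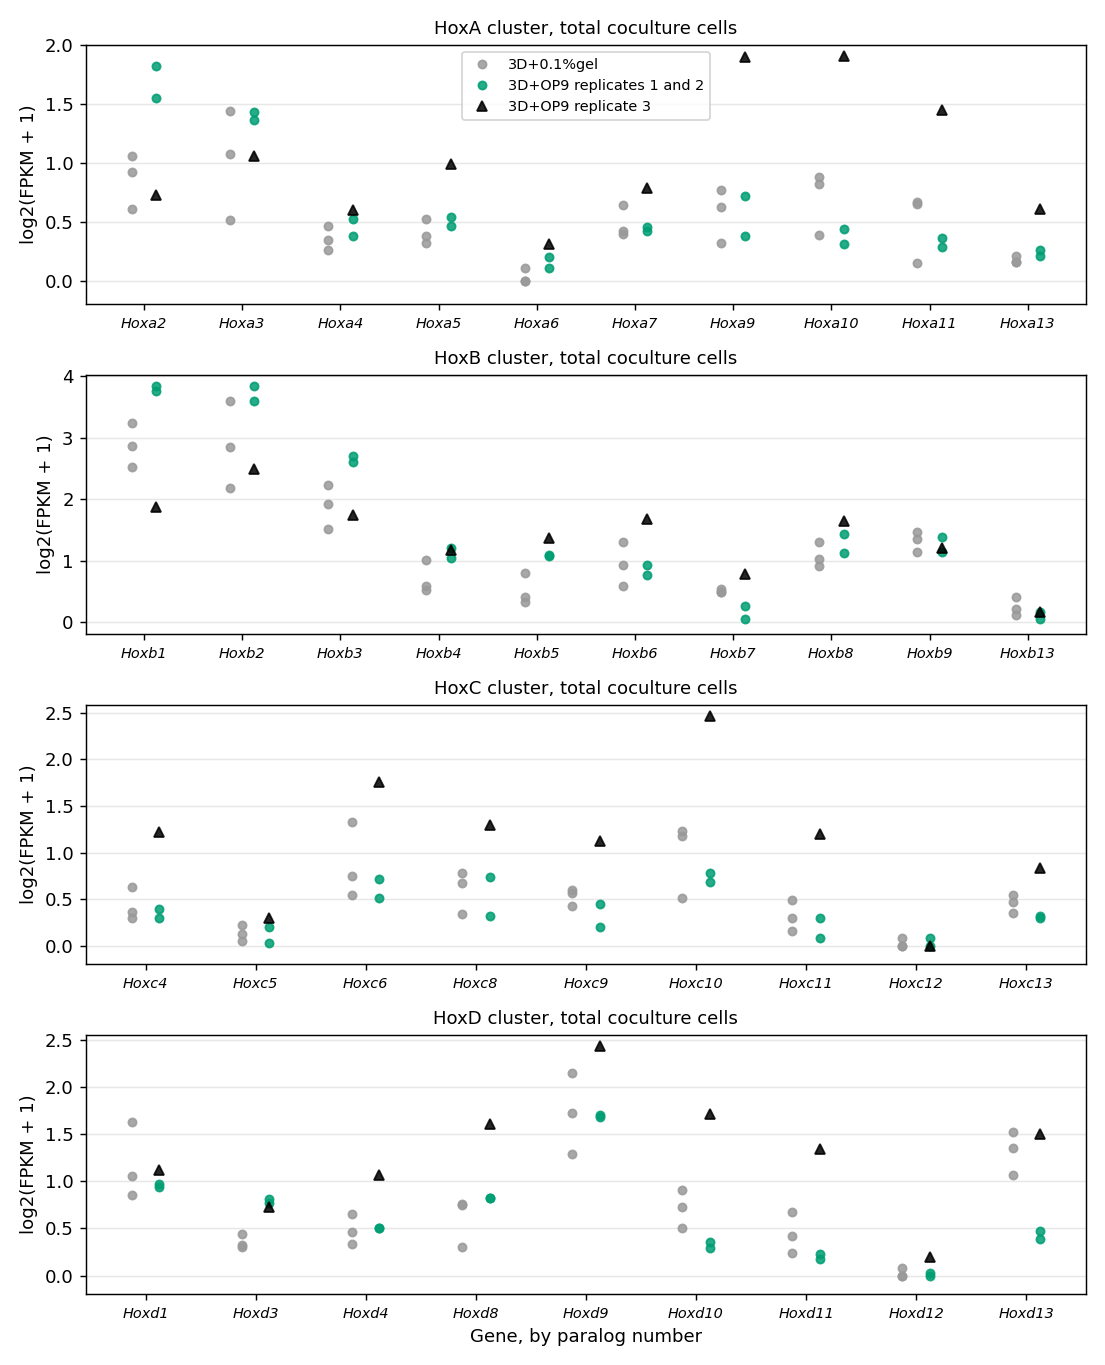
Points are single coculture libraries, as log2(FPKM + 1), for Hox genes of each cluster in paralog order. Replicate 3 of 3D+OP9 (black triangles) lies below replicates 1 and 2 at Hoxa2, Hoxa3 and Hoxb1 to Hoxb3 and above the other 5 libraries at most posterior genes, such as Hoxc10 (4.52 FPKM).

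Genes that act with the Hox cluster were read from lists chosen by function. Of 9 TALE cofactors, Meis1, the partner of Hoxa9 in stem cells, was at 141, 121 and 123 FPKM in bone marrow, 99.8, 59.5 and 60.5 in fetal liver and 18.2, 16.5 and 15.7 in D5-LSKCD201+. D5-LSKCD201- had 7.76, 5.28 and 7.27 and mESC 1.17 to 1.53, and the 5 groups did not overlap. The order of the groups was that of their summed Hox level. Meis2 had another order, at 16.2 to 17.8 in D5-LSKCD201+ against 0.933 to 1.3 in fetal liver and at most 0.0521 in bone marrow. Between D5-LSKCD201+ and D5-LSKCD201-, 2 of 9 were higher (Meis1 1.21, Meis2 1.33) and 3 lower (Meis3, Pbx4 and Pknox2), where 10.8% and 13.9% of all genes were, with a list median of 0.05. Against bone marrow 1 of 8 tested was higher and 3 lower, where 17.5% and 27.2% of all genes were. The lower genes included Meis1 (-2.86) and Pbx4 (-4.11). Against fetal liver 2 were higher and 2 lower, where 15.1% and 19.6% of all genes were. In the coculture Meis1 was the one TALE gene called of 9 tested, where 2.11% of all genes were called higher on OP9. Meis1 was at 4.30, 4.38 and 3.37 FPKM on OP9 and 0.840, 1.18 and 1.06 on gelatin (1.3, SE 0.14, adjusted p = 0.00276). Endothelial and red cell markers were also higher on OP9, and their part was not tested. Replicate 3 thus did not stand out in Meis1.

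Cdx1 and Cdx2, whose proteins switch on Hox genes in the embryo, were highest in D5-LSKCD201-. Cdx1 was at 4.79 to 5.92 FPKM in D5-LSKCD201-, 1.42 to 2.0 in mESC and 0.0682 to 0.0942 in D5-LSKCD201+ (-2.58 against D5-LSKCD201-, adjusted p = 8.58e-07). Cdx2 and Cdx4 were at 1.13 or less in every sorted library. Cyp26a1, a retinoic acid target that degrades the acid, was at 380 to 476 FPKM in D5-LSKCD201-, 115 to 123 in D5-LSKCD201+ and under 1 in the 9 other libraries. Of 10 chromatin regulators, 4 (Kmt2a, Suz12, Bmi1 and Kdm6b) were lower in D5-LSKCD201+ than in fetal liver and in bone marrow, where 19.6% and 27.2% of all genes were lower. Kmt2a, the MLL methyltransferase that maintains HoxA expression, was at 0.617 to 0.862 FPKM in D5-LSKCD201+, 2.43 to 4.82 in fetal liver and 5.76 to 8.38 in bone marrow (-1.49 and -2.16, adjusted p = 5.45e-04 and 4.79e-06). Between D5-LSKCD201+ and D5-LSKCD201- 1 of the 10, the Polycomb subunit gene Eed, was called lower, where 13.9% of all genes were. Eed was at 36.5 to 37.8 against 110 to 115 FPKM (-1.58, adjusted p = 3.16e-07).

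Genes that flank the clusters were compared with the members beside them. Evx1, next to Hoxa13, was at 1.27 to 1.81 FPKM in D5-LSKCD201+ and higher, at 8.41, 3.33 and 8.35, in D5-LSKCD201- (-1.53, adjusted p = 0.00318), the opposite direction to Hoxa13. Skap2, at the other end of the HoxA cluster, was at 51.7 to 56.6 in D5-LSKCD201+ and 20.2 to 28.4 in D5-LSKCD201- (1.18, adjusted p = 1.04e-04), and at 120 to 130 in bone marrow. Hibadh, Mtx2, Calcoco1 and Smug1 were not called between D5-LSKCD201+ and any of the 4 other groups. Of the noncoding transcripts within the clusters, Hoxb5os was at 1.86 to 2.50 in bone marrow and 0.481 to 1.47 in fetal liver and listed at 0 in all 3 D5-LSKCD201+ libraries, in which its neighbour Hoxb5 was at its highest.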

How the data were processed

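Per the submitters' processing notes and the study's methods, poly(A) libraries (VAHTS mRNA-seq v2) were aligned with HISAT2 2.0.5 and quantified with StringTie 1.3.3, and Cuffdiff 1.3.0 was also listed. The build was GRCm38 (the notes also list mm9); the strand setting is not given in the sources used here. The deposited values are FPKM that the authors computed per gene, in 2 tables normalized separately, so that tests were made within a table only. The coculture table had 3578 blank rows. Read depth is unknown; FPKM summed to 483263 to 620332 per library. Sorted-table members were matched by identifier to GENCODE M21, and 22 of 38 share their deposited locus entry with another gene, so that reads of overlapping gene models may be assigned to either.

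Groups were taken from the labels. Each pair of groups was fitted alone with limma 3.58.1 (R 4.3.3; trend, two-sided) on log2(FPKM + 1), over genes averaging 0.5 FPKM or more in the libraries compared, and called at an adjusted p under 0.05 and a log2 fold change of at least 1 in size. The fit was tested on simulated data. Members with a group mean of at least 1 FPKM in any of the 7 groups (25 of 39) were named with their library values, the other 14 by range or counts, and other genes came only from lists chosen by function or as markers. Some results for single genes are not reported here and are not drawn, though counts and sums include every member. The members and lists were chosen with earlier results of these data known. Alternatives were another pseudocount, other filters, quantile normalization, 1 fit over all 5 sorted groups, p alone, a replicate block and leaving out each library; averaging the closest pair of libraries of each group was added after seeing the data. Replicate numbers are shared between groups by label only. Deviations from the group mean of same-numbered libraries correlated by over 0.1 in every pair only between fetal liver and bone marrow (0.242, 0.202 and 0.159). There the block changed no member's call, and over all genes it called 2607, against 2581 without it.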

Additional observations from a re-analysis of the deposited data

How the results depend on the processing

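With p alone the count of members called was 11 for D5-LSKCD201+ against mESC, 5 for D5-LSKCD201- against mESC, 14 for D5-LSKCD201+ against fetal liver, 14 against bone marrow and 7 for fetal liver against bone marrow, where the fold threshold no longer applied. A pseudocount of 0.1 gave 3 for D5-LSKCD201- against mESC, Hoxa2 and Hoxb1 being added. Over all genes that setting called 2915, against 1949 with a pseudocount of 1. For fetal liver against bone marrow, quantile normalization gave 1 (Hoxa5), averaging the closest pair of libraries gave 1 (Hoxa10), and leaving out a library gave 0 to 1. The cause was not tested. Over all genes these settings called 2433, 2529 and 2514 to 2708, against 2581 in the main fit. Leaving out a library gave 0 to 0 for OP9 against gelatin, 5 to 7 for D5-LSKCD201+ against D5-LSKCD201-, 5 to 6 against mESC, 8 to 9 against fetal liver, 7 to 8 against bone marrow and 1 to 1 for D5-LSKCD201- against mESC. The replicate block gave 0, 6, 6, 1, 9, 8 and 0 members for OP9 against gelatin, D5-LSKCD201+ against D5-LSKCD201-, D5-LSKCD201+ against mESC, D5-LSKCD201- against mESC, D5-LSKCD201+ against fetal liver and against bone marrow, and fetal liver against bone marrow, as without it, and changed no member's call. Of the named members' fold changes 1 reversed, Hoxb4 against bone marrow at 0.0685 under quantile normalization, and 2 lost their call (both Hoxb8, 0.999). Quantile normalization moved the median of all genes by over 0.1 in 5 comparisons. Over all genes, 339 were called between OP9 and gelatin, 209 without gelatin replicate 2, 444 without OP9 replicate 3, 531 with a pseudocount of 0.1, 891 by p alone and 139 with the closest pair averaged. Depth is unknown, so that no limit can be set for members listed at 0.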
